A study of Mus musculus with 4 samples.

Results

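The regulators of G-protein signalling described here are 10 genes, Rgs2, Rgs3, Rgs4, Rgs5, Rgs10, Rgs12, Rgs14, Rgs16, Rgs17 and Rgs19, of 20586 genes measured on the arrays. They were chosen by name, as every probe set whose annotated gene symbol equals one of these, which gave 27 probe sets. RNA came from cultured cardiac fibroblasts of 3-month-old male PMCA4-/- and WT mice, grown for 4 days, and there were 4 arrays: PMCA4-/- cells given 30 µM phenylephrine for 72 h, untreated PMCA4-/- cells, WT cells given the same phenylephrine treatment, and untreated WT cells. The PMCA4-/- mice are global knockouts, in which a neomycin cassette takes the place of exon 2, with the start codon, and some of exon 3 in the gene of plasma membrane calcium ATPase 4 (Atp2b4). The pump gene is deleted in all cells of these mice. Each array carried RNA pooled from 3 batches of fibroblasts, and each condition had 1 array, so no value below has a replicate error and no p-value is given. The study's methods also speak of several independent RNA pools of each genotype, and how these relate to the single arrays is not given in the sources. The number of arrays limits the precision.

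A G protein is switched on when an activated receptor makes its alpha subunit exchange GDP for GTP, and it is switched off when the alpha subunit hydrolyses that GTP. RGS proteins bind the active alpha subunit and speed this hydrolysis, which shortens signals of receptors that act through Gq or Gi. Phenylephrine activates α1-adrenergic receptors, which act through Gq, and in the heart and vessels RGS2, RGS4 and RGS5 are known as brakes on such signals.

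The values are intensities on a linear scale, estimated by the authors with PUMA, a method that models the probes of each probe set. For a gene with several probe sets, the one brightest on average over the arrays was read, and an intensity under the median of its array, 33.98 to 34.03, was raised to that median before log2 differences were taken. A gene was called when it was at least 2-fold apart between 2 arrays, out of the genes above the median on at least 1 of them. All 10 members could be called in each of the 4 pairs of arrays. Rgs5 and Rgs14 passed in some pairs through 1 side only, since Rgs5 was below the median in untreated PMCA4-/- cells and Rgs14 in phenylephrine-treated WT cells. Across 12122 genes above the median on any array, the log2 values of the phenylephrine-treated and untreated arrays correlated at 0.997 in PMCA4-/- cells and at 0.997 in WT cells, and arrays of different genotype at 0.941 to 0.942. Genes are not independent replicates. Every array enters 2 of the 4 pairs, so agreement between pairs is not a replication across cultures.

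Of 10 markers of fibroblasts, 9 were above the median on all 4 arrays, and Tcf21 was below it on all. Among 6 measured markers of cardiomyocytes and 6 of endothelial cells, 5 of each were below the median on all 4 arrays. Leukocyte markers were split, with 4 of 8 measured above the median on all arrays (Cd14, Lyz2, Csf1r and Adgre1) and 4 below it on all, Ptprc among them. The targeted gene, Atp2b4, was read by 1 probe set, with intensities of 37.9 and 31.6 in phenylephrine-treated and untreated PMCA4-/- cells, against 23.3 and 19.6 in WT cells. The sources do not place this probe set inside or outside the deleted stretch, so its values check nothing about the genotype.

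Of the 10 members, 1 was at least 2-fold lower and none was at least 2-fold higher in PMCA4-/- fibroblasts, and this held for both pairs, untreated and phenylephrine-treated. That member was Rgs5, which encodes a small RGS protein known from pericytes and vascular smooth muscle. Among all genes that could be called, the untreated pair had 4.61% lower by 2-fold or more and 4.29% higher, 8.9% in all. The phenylephrine pair had 4.67% lower and 4.6% higher, 9.27% in all. The members' count is therefore near what these shares give for 10 genes. With 1.5-fold as the threshold, Rgs2 and Rgs5 were lower and Rgs16 was higher in untreated PMCA4-/- cells, where 11.1% of all genes were lower and 10.3% higher by that much, 21.3% in all. In the phenylephrine pair Rgs2 and Rgs5 were lower and Rgs14 was higher at this threshold, where 11.4% of all genes were lower and 11.1% higher, 22.5% in all. Without a threshold, 9 of the 10 members were lower in untreated and 8 in phenylephrine-treated PMCA4-/- cells, against 50.8% and 50.8% of all genes. Their median log2 difference was −0.22 and −0.24, against −0.01 and −0.01 over all genes that could be called.

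**Figure D1:**
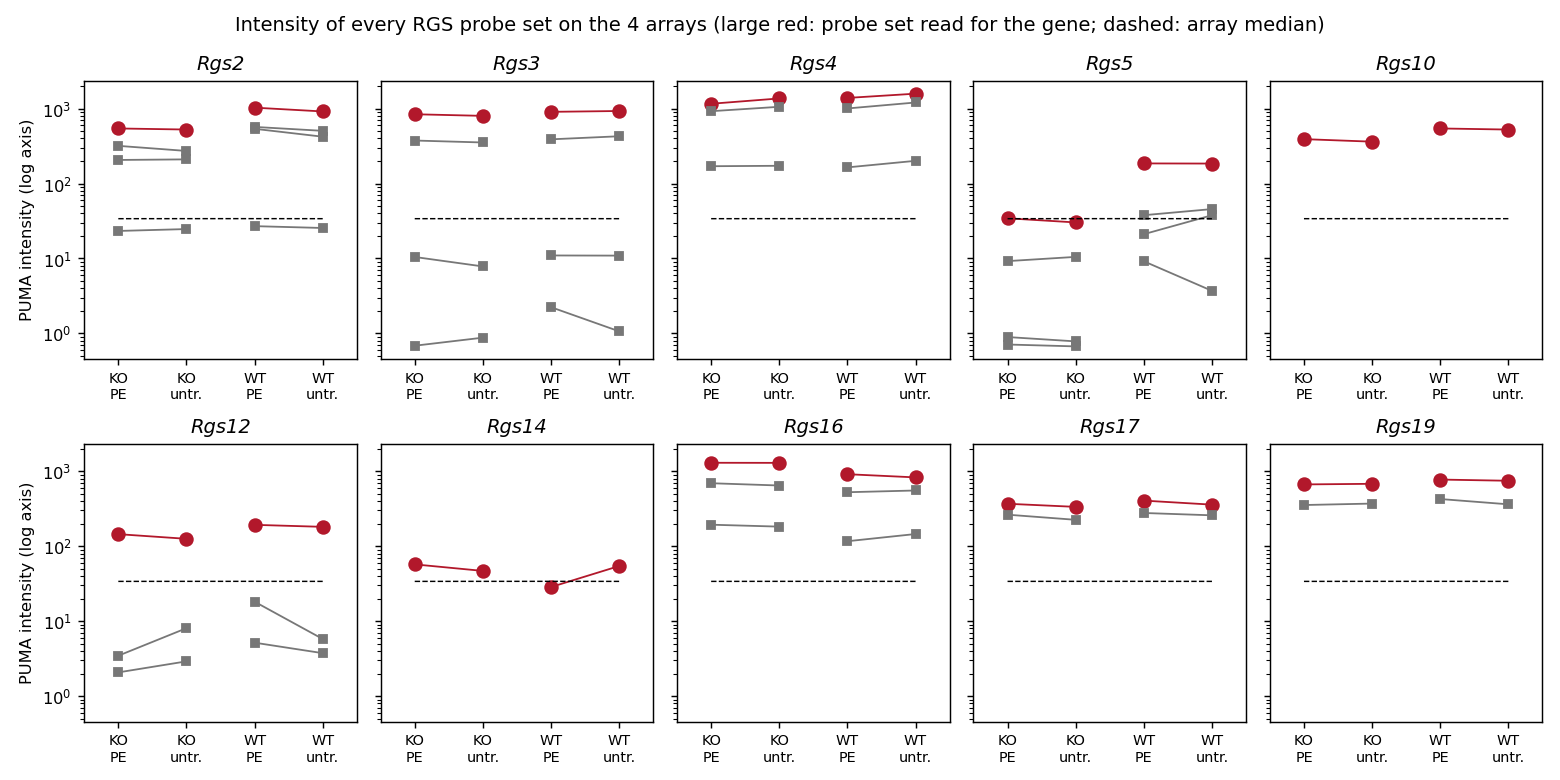
PUMA intensity on a log axis for every probe set of the 10 members on the 4 arrays (phenylephrine-treated and untreated PMCA4-/-, labelled KO, then phenylephrine-treated and untreated WT), with lines joining the 2 arrays of a genotype. Rgs5 is near or under the dashed array median in both PMCA4-/- arrays and above it in both WT arrays at the probe set read, and Rgs2 is lower in both PMCA4-/- arrays at its 3 probe sets above the median.

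Rgs5 had intensities of 34.4 in phenylephrine-treated and 30.3 in untreated PMCA4-/- fibroblasts, against 186 in phenylephrine-treated and 185 in untreated WT fibroblasts. The PMCA4-/- values lay at the array median, where a probe set is not clearly above background. With PUMA, Rgs5 was lower by 5.43-fold in untreated PMCA4-/- cells, where its value was raised to the median, and by 5.40-fold in phenylephrine-treated ones, where it lay just above the median. Among genes that could be called, 1.45% and 1.49% were at least as far apart. The authors' other estimate, the Robust Multiarray Average (RMA), gave 41.9 and 45.3 in phenylephrine-treated and untreated PMCA4-/- cells, against 181 and 225 in WT cells. On the RMA scale as deposited, the log2 difference was −2.31 in the untreated and −2.11 in the phenylephrine pair, and −1.62 and −1.31 after dim values were raised to the RMA median. The RMA differences were thus smaller than those with PUMA, −2.44 and −2.43, and the size of the fold depended on the estimate. The array can give only less Rgs5 RNA in the pool, in which fewer cells with the transcript and less transcript per cell cannot be told apart.

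The 3 other probe sets of Rgs5 were dim. One, 1420941_at, had PUMA intensities of 0.712 and 0.672 in phenylephrine-treated and untreated PMCA4-/- cells, against 37.8 and 45.6 in WT cells, so it crossed the array median only in WT. A second, 1420940_x_at, whose suffix marks probes that can bind other transcripts, gave 9.23 and 10.5 in PMCA4-/- cells, against 21.1 and 37.8 in WT cells. The remaining one, 1420942_s_at, was under the median on all arrays. All 4 were lower in PMCA4-/- cells in both pairs, with PUMA and with RMA, before dim values were raised. When a gene was instead read as the median over its probe sets, the log2 difference of Rgs5 in the untreated pair was −0.29 with dim values raised, and Rgs5 was not called.

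Because Rgs5 is a marker of pericytes, other genes of smooth muscle and pericytes were read beside it. Of 10 measured, 5 were above the median on all arrays and 4 below it on all, and the summed intensity of the 10 was 19208 and 19732 in phenylephrine-treated and untreated PMCA4-/- cells, against 11221 and 10934 in WT cells. Acta2 carried most of the gap between the sums, so the sums do not describe pericytes as a class. Acta2, the gene of smooth muscle actin, had 10209 and 10268 in PMCA4-/- cells against 2512 and 2549 in WT cells. Tagln, another smooth muscle gene, had 1579 and 1436 in PMCA4-/- cells against 747 and 726 in WT cells. Kcnj8 and Abcc9, the genes of a potassium channel found in cardiac pericytes, were below the median on all 4 arrays. Notch3, also expressed by pericytes, had a log2 difference of −0.60 in the untreated and −0.84 in the phenylephrine pair, while those of Cspg4 were −0.07 and 0.39, and those of Pdgfrb 0.08 and −0.10. The part of such cells in the Rgs5 difference was not tested.

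Rgs4 is the neighbour of Rgs5 on chromosome 1, with no other measured gene between them, and its product inhibits Gq and Gi signals in cardiac muscle. Its intensities were 1161 and 1367 in phenylephrine-treated and untreated PMCA4-/- cells, and 1388 and 1583 in WT cells. The untreated PMCA4-/- array lay close to the treated WT one. The log2 difference was −0.21 in the untreated and −0.26 in the phenylephrine pair, a size that 61.7% and 54.5% of all genes reached. Of its 3 probe sets, all above the median on all arrays, 1448285_at gave 0.05 in the phenylephrine pair. The large difference of Rgs5 was thus not seen in its neighbour.

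Rgs2, whose product prefers the Gq alpha subunit and whose loss raises blood pressure in mice, had 543 and 526 in phenylephrine-treated and untreated PMCA4-/- fibroblasts, against 1030 and 916 in WT fibroblasts. Rgs2 was 1.74-fold lower in the untreated and 1.90-fold lower in the phenylephrine pair, short of 2-fold, and 13% and 10.5% of all genes were at least as far apart. Its second probe set, 1419247_at, had 318.5 and 272 in PMCA4-/- cells, against 570 and 505 in WT cells, log2 differences of −0.84 in the phenylephrine and −0.89 in the untreated pair. The third, 1447830_s_at, gave −1.38 and −1.005 in the same order, both past 2-fold, from 206.5 and 210.2 in PMCA4-/- cells against 538 and 422 in WT cells. The fourth was dim on all arrays. With RMA the 3 brighter probe sets ranged from −1.31 to −0.79 over both pairs, so each reading of a bright Rgs2 probe set was lower in PMCA4-/- cells.

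Rgs16, an RGS gene induced by inflammatory stimuli in several cell types, was the member highest in PMCA4-/- over WT cells in the untreated pair. Its intensities were 1300 and 1296 in phenylephrine-treated and untreated PMCA4-/- cells, against 915 and 830 in WT cells. The log2 difference was 0.64 in the untreated and 0.51 in the phenylephrine pair, which is 1.56-fold and 1.42-fold, and 18.5% and 27.4% of all genes were at least as far apart. Its 2 other probe sets were higher in PMCA4-/- cells as well, with log2 differences of 0.22 and 0.33 for untreated cells and 0.40 and 0.73 for treated ones. With RMA the 3 probe sets ranged from 0.21 to 0.52 over both pairs.

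**Figure D2:**
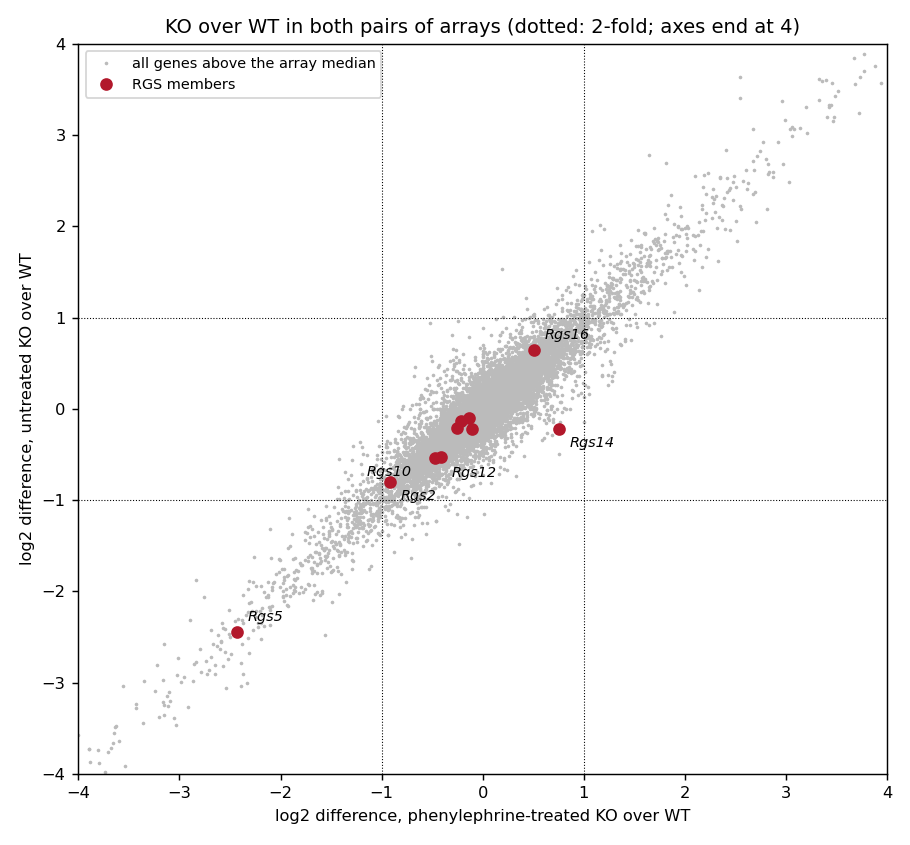
Log2 difference of PMCA4-/- (KO) over WT in the phenylephrine-treated pair (horizontal) and the untreated pair (vertical) for all genes above the array median (grey) and the 10 members (red), with dotted lines at 2-fold. Rgs5 is the member past 2-fold in both pairs, Rgs2 lies just short of it, and Rgs14 is the member whose sign differs between the pairs.

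The stretch of 250 bases before the annotated start of these 4 genes is shown because Rgs5, Rgs2 and Rgs16 were the members farthest apart in the untreated pair and Rgs4 adjoins Rgs5. The sequences are from RefSeq on build GRCm38.p6, matched by symbol, which gave 13 windows for 9 of the 10 members, all but Rgs14, and they run 5′ to 3′ on the strand of the gene: chr1:169655251-169655500 on the plus strand for Rgs5, chr1:169747643-169747892 on the minus strand for Rgs4, chr1:144004150-144004399 on the minus strand for Rgs2 and chr1:153740103-153740352 on the plus strand for Rgs16. Capitals mark matches on either strand to a TATA box (TATAAA), a GC box (GGGCGG), the core bound by NFAT factors (GGAAA) or a cAMP response element (TGACGTCA). Adjoining matches can overlap.
Rgs5: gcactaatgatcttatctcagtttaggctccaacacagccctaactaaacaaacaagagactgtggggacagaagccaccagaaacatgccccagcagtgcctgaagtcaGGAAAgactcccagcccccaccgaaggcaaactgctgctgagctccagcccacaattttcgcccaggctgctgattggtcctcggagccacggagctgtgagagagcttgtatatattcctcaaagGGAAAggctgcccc
Rgs4: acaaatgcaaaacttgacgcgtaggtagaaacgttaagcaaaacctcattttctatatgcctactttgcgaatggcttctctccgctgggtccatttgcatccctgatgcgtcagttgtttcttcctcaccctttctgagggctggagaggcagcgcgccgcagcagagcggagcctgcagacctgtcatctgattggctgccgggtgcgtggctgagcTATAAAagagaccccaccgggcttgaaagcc
Rgs2: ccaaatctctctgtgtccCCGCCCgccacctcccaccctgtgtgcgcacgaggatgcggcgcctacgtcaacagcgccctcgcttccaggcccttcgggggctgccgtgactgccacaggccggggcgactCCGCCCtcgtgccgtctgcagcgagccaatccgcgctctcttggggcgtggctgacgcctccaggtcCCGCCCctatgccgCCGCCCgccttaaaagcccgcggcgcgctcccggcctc
Rgs16: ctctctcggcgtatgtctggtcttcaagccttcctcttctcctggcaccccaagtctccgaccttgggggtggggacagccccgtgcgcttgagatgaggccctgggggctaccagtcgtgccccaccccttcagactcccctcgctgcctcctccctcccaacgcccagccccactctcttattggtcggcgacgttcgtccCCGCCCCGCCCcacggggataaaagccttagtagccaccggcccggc

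Neighbouring Rgs5 and Rgs4 had the same GC content here, 53.6% each, but different matches. Rgs4 had a TATAAA match 31 bases before its start and no other match. Rgs5 had no TATAAA match and 2 NFAT cores, 140 and 14 bases before its start. Only these exact letters were searched. The Rgs5 window holds the similar letters tatatat close to its start, and those of Rgs2 and Rgs16 hold ttaaaa and ataaaa close to theirs. A TATA-like box is thus not excluded in any of them. Rgs2, with 72.4% GC, held 4 GC boxes, and Rgs16, with 66.4% GC, held 2 that overlap. None of the 4 held a cAMP response element. Of all 32851 windows of this length, 12.4% held a TATA box, 32.7% a GC box, 55.6% an NFAT core and 1.55% a cAMP response element. A match is a description of the letters, not a site, and the arrays do not measure binding.

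Rgs2, Rgs16, Rgs5 and Rgs4 all lie on chromosome 1, as does the targeted gene, with 71, 108, 225 and 226 measured genes between Atp2b4 and each. The 100 nearest genes that could be called had a median log2 difference of 0.27 around Rgs2, 0.27 around Rgs16 and 0.22 around Rgs5 and Rgs4 in the untreated pair. In the phenylephrine pair it was 0.26, 0.29 and 0.24. Rgs2 and Rgs5 were thus lower in PMCA4-/- cells within a stretch that was on balance higher. With this median subtracted, which was added once values were known, Rgs2 came to −1.07 and −1.18 in the untreated and phenylephrine pairs, past 2-fold, Rgs4 to −0.43 and −0.50, and Rgs16 to 0.37 and 0.22. Around Atp2b4 itself the median of the nearest genes was 0.11 in both pairs. Around Rgs17 on chromosome 10 it was 0.37 in the untreated and 0.28 in the phenylephrine pair. Around Rgs12 on chromosome 5 it was −0.29 and −0.33. Such medians were taken only around the members and Atp2b4, so their spread over the genome is not known. The part of the chromosomal stretch in the values of Rgs2, Rgs16, Rgs5 and Rgs4 was not tested. Rgs1, Rgs13 and Rgs18, which lie beside Rgs2, and Rgs8, beside Rgs16, were below the median at each of their probe sets on all 4 arrays.

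**Figure D3:**
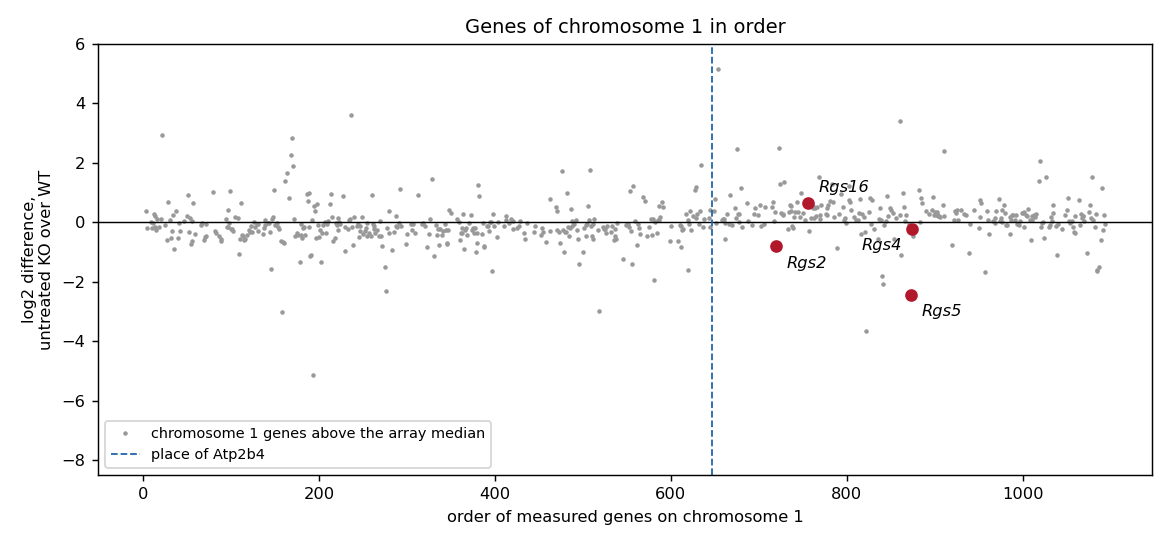
Log2 difference of untreated PMCA4-/- (KO) over WT for genes of chromosome 1 above the array median, in their order on the chromosome (grey), with the 4 members that lie there (red) and the place of Atp2b4 (dashed). Rgs5 at −2.44 and its neighbour Rgs4 at −0.21 stand side by side.

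Rgs10, Rgs12 and Rgs14 form the group of RGS proteins that act mainly on Gi alpha subunits, and RGS12 and RGS14 carry further domains that bind inactive alpha subunits and Ras proteins. Rgs10 had 391 and 362 in phenylephrine-treated and untreated PMCA4-/- cells, against 544 and 525 in WT cells. Its log2 difference was −0.54 in the untreated and −0.47 in the phenylephrine pair, and −0.55 and −0.51 with RMA. Rgs12 had 145 and 126 in PMCA4-/- cells, against 193 and 182 in WT cells, with log2 differences of −0.53 and −0.41. These sizes were reached by 24.6% and 29.9% of all genes for Rgs10 and by 24.9% and 35.3% for Rgs12. With the median of the 100 nearest genes subtracted, Rgs12 was at −0.24 and −0.08 and Rgs10 at −0.52 and −0.51.

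Rgs10 is known from microglia and other leukocytes, so leukocyte markers were read beside it. The summed intensity of the 8 measured was 2451 and 2204 in phenylephrine-treated and untreated PMCA4-/- cells, against 1688 and 1515 in WT cells. Cd14 and Csf1r carried most of the gap between the sums. Csf1r, the receptor gene of macrophages, had 492 and 378 in PMCA4-/- cells, against 180 and 153 in WT cells, and Cd14 had 1431 and 1295, against 987 and 891 in WT cells. Lyz2 had 431 and 441 in PMCA4-/- cells and 422 and 379 in WT cells, and Adgre1 had 39.9 and 44.5 in PMCA4-/- cells and 49.4 and 43.9 in WT cells. The part of such cells in the Rgs10 difference was not tested.

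Rgs14, read by 1 probe set close to the array median, had 57.3 and 46.9 in phenylephrine-treated and untreated PMCA4-/- cells, against 28.6 and 54.5 in WT cells. With PUMA the treated WT array was the low one, and the other 3 lay close together. RMA gave 145 and 140 in phenylephrine-treated and untreated PMCA4-/- cells, against 117 and 124 in WT cells, so both WT arrays were lower. The log2 difference was −0.22 for untreated and 0.75 for phenylephrine-treated cells with PUMA, and 0.18 and 0.31 with RMA. The direction in the untreated pair thus depended on the estimate. Without raising dim values the PUMA difference reached 1.00 in the phenylephrine pair.

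Rgs3, Rgs17 and Rgs19 had small differences between the genotypes in the values as read. Rgs3, whose product acts on Gq and Gi alpha subunits, had 841 and 800 in phenylephrine-treated and untreated PMCA4-/- cells, and 906 and 929 in WT cells. Its log2 difference was −0.22 in the untreated and −0.11 in the phenylephrine pair, and 2 of its 4 probe sets were dim on all arrays. Rgs17, of the group that acts on Gz and other Gi-type subunits, had 369 and 335 in PMCA4-/- cells, and 407 and 359 in WT cells, with differences of −0.10 and −0.14. Rgs19, first found as a protein that binds a Gi alpha subunit, had 668 and 681 in PMCA4-/- cells, and 776 and 748 in WT cells, with differences of −0.14 and −0.22. At its other probe set, 1434940_x_at, the differences were 0.03 and −0.27. For comparison, the median size of the log2 difference over all genes was 0.29 in each of these pairs, so the 3 genes were nearer to 0 than the typical gene. For Rgs17 this did not hold with the median of its 100 nearest genes subtracted, where it was at −0.47 in the untreated and −0.42 in the phenylephrine pair.

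Probe sets and estimates gave mostly the same direction. These counts use the values as deposited, with dim values not raised. Of the 21 member probe sets above the median on any array, 17 were lower and 4 higher in untreated PMCA4-/- cells with PUMA, and likewise 17 and 4 with RMA. The sign was the same with both estimates for 19 of 21 in the untreated and 21 of 21 in the phenylephrine pair, and 18 had 1 sign in both pairs and both estimates. The counts do not carry over to raised values, where RMA put 1420940_x_at and 1420941_at of Rgs5 at the median on all arrays and so gave them no direction. The 2 estimates come from the same 4 arrays, so this covers the way of estimation and not the spread between cultures. The remaining 6 of 27 probe sets were below the median on all arrays.

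**Figure D4:**
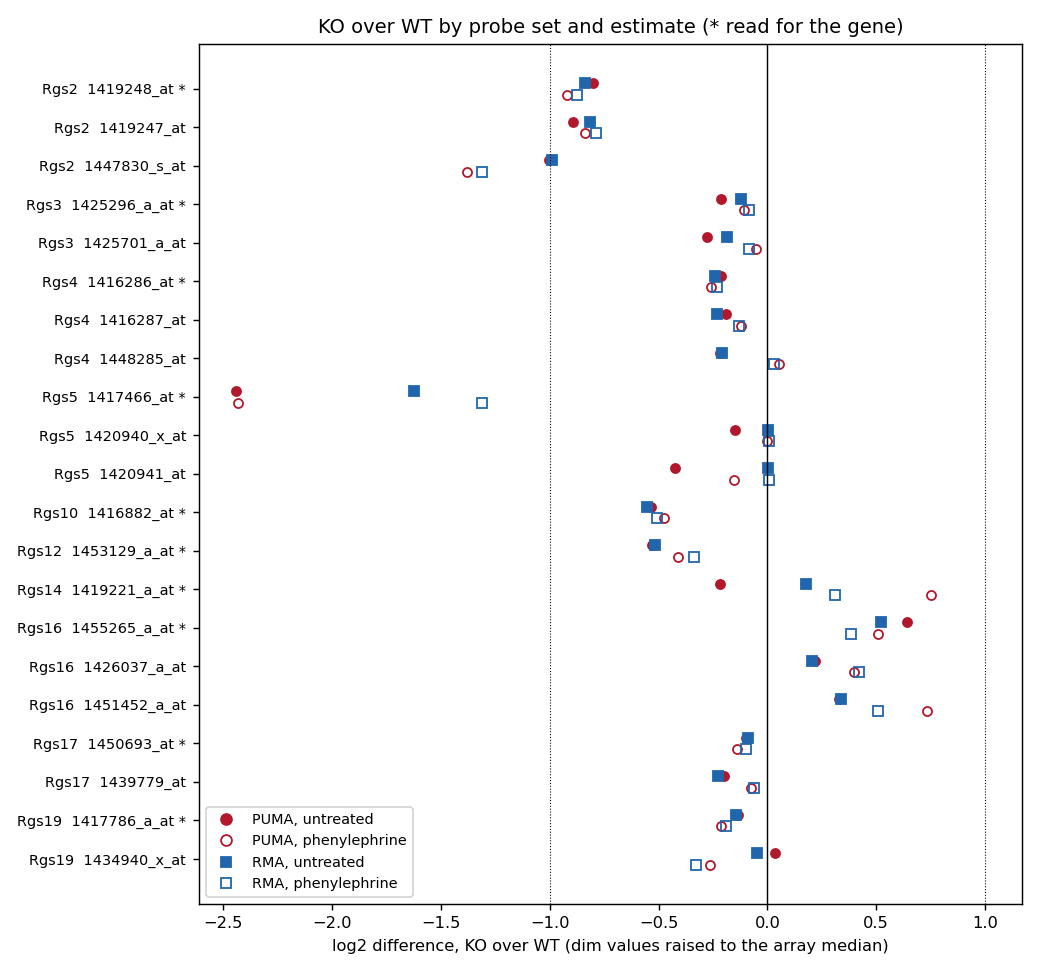
Log2 difference of PMCA4-/- (KO) over WT for the 21 member probe sets above the array median on any array, with PUMA (circles) and RMA (squares), untreated (filled) and phenylephrine-treated (open), dim values raised to the array median. The 3 Rgs2 probe sets lie between −1.38 and −0.79 and the 3 Rgs16 probe sets are all above 0, while Rgs14 changes side between estimates.

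Phenylephrine left the members close to their untreated values in both genotypes. None of the 10 was at least 2-fold apart between phenylephrine-treated and untreated cells of either genotype. Of all genes, 0.0173% were higher and 0.0345% lower by that much in PMCA4-/- cells, 0.0518% in all, and 0.00862% higher and 0.0172% lower in WT cells, 0.0259% in all. At 1.5-fold the count was 0 in PMCA4-/- cells, against 0.742% of all genes, and 1 in WT cells, Rgs14, against 0.578% of all genes. Over all genes that could be called, 95% differed by less than 0.33 on the log2 scale in PMCA4-/- cells and by less than 0.31 in WT cells. Within those bounds, at the probe set read for each gene, lay all 10 members in PMCA4-/- cells and 9 of 10 in WT cells. These bounds hold the response to phenylephrine and the error between arrays together. In the genotype pairs the same 95% bound was 1.38 for untreated and 1.40 for treated cells, and Rgs5 was the member beyond it.

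Rgs4 was lower with phenylephrine in both genotypes, at 1161 in treated and 1367 in untreated PMCA4-/- cells, and at 1388 in treated and 1583 in untreated WT cells. These are log2 differences of −0.24 and −0.19, against a median of 0.03 and 0.04 over all genes, and 11.4% and 15.8% of all genes were at least as far apart. Its 3 probe sets were all lower, by 0.02 to 0.24 on the log2 scale in PMCA4-/- cells and by 0.19 to 0.29 in WT cells. Rgs2, which many agonists of Gq induce at early times, stood at 0.05 in PMCA4-/- and 0.17 in WT cells after the 72 h, and Rgs16 at 0.00 and 0.14. The other bright probe sets of Rgs2, 1419247_at and 1447830_s_at, gave 0.23 and −0.03 in PMCA4-/- cells, and 0.17 and 0.35 in WT cells. The values of Rgs2 thus depended on the probe set. The other probe sets of Rgs16 gave 0.10 and 0.09 in PMCA4-/- cells but −0.08 and −0.32 in WT cells, so its direction in WT cells depended on the probe set. Rgs12 and Rgs17 were higher by 0.21 and 0.14 in PMCA4-/- cells and by 0.09 and 0.18 in WT cells. Rgs3, Rgs5, Rgs10 and Rgs19 ranged from −0.03 to 0.11 in PMCA4-/- and from −0.04 to 0.05 in WT cells. In WT cells, RMA gave −0.32 for Rgs5 and −0.05 for Rgs12, and the Rgs5 probe set 1420941_at gave −0.27, so the small values of these genes depended on the estimate or the probe set.

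**Figure D5:**
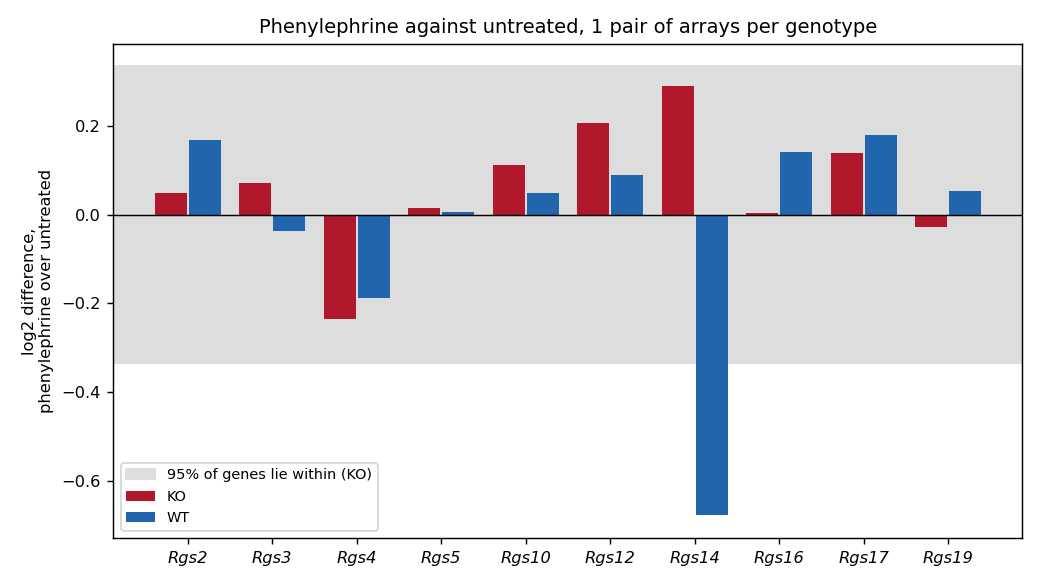
Log2 difference of phenylephrine-treated over untreated cells for the 10 members in PMCA4-/- (KO, red) and WT (blue) fibroblasts, with 1 pair of arrays each. The grey band holds 95% of all genes in PMCA4-/- cells, and Rgs14 in WT cells, at −0.68, is the bar outside it.

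The receptors and G proteins that RGS proteins act on were read in the same way. Adra1a and Adra1b, which encode α1 receptors, were below the array median on all 4 arrays. Adra1d, another α1 receptor gene that was looked for, was not among the genes measured. The α1 receptors were therefore not covered in full. Of 11 G protein alpha subunit genes that could be called in the untreated pair, 1 was higher by 2-fold or more and 1 lower in PMCA4-/- cells. Of all genes that could be called in that pair, 4.29% were higher and 4.61% lower by that much, 8.9% in all. The same shares stand beside the counts of effectors and of receptor kinases and arrestins below. With so few genes in a list, these counts do not set the lists apart from all genes. Gnai1, a Gi subunit that many RGS proteins act on, had 3.24 and 3.83 in PMCA4-/- cells, against 603 and 554 in WT cells, at least 16.3-fold lower in the untreated and 17.8-fold lower in the phenylephrine pair. Gnao1, the gene of Go, had 365 and 370 in PMCA4-/- cells, against 131 and 128 in WT cells, 2.89-fold higher in the untreated and 2.78-fold in the phenylephrine pair. The Gq subunit genes Gnaq and Gna11 differed by 0.34 and 0.25 in the untreated pair. Of 12 effector genes that could be called there, 1 was lower, Plcb1, the gene of a phospholipase C that Gq activates, with a log2 difference of −1.43, and none was higher. Of 7 receptor kinase and arrestin genes, which end receptor signals, Grk3 was at least 3.95-fold higher and Arrb1 at least 3.31-fold lower in untreated PMCA4-/- cells. Of the 14 other RGS genes and RGS partner genes looked for, 11 were measured, 9 were below the median on all arrays, and neither Rgs9 nor Rgs20 was 2-fold apart between the genotypes.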

How the data were processed

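RNA of cultured cardiac fibroblasts was measured on 4 Affymetrix GeneChip arrays, 1 per genotype and treatment, hybridised with biotinylated cRNA (6 µg total RNA). The deposited values are intensity estimates of 45037 probe sets on each array, not logged, which the authors made with PUMA and, separately, with Robust Multiarray Average (RMA). A further table held 180148 values, all equal to PUMA intensities within a share of 0.0001. Columns of fold changes and of probabilities of a positive log ratio are the authors' own comparisons and were not used. The submitters' processing notes name MAS5 and RMA; further versions, the annotation release and the genome build are not given in the sources used.

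Probe sets with 1 gene symbol (37818) were kept, 1394 with several, 5820 with none and 5 unreadable were left out, and older symbols were updated through RefSeq on GRCm38.p6 (3520 by accession, 394 by older symbol), which gave 20586 genes. Array medians were 33.98 to 34.03 (PUMA) and 72.5 to 73.0 (RMA), and 12.9% to 14.6% of PUMA intensities on an array were under 1, which is why dim values were raised to the array median. Raising shrinks the differences of dim genes, so a fold with a side below the median is a lower bound within that estimate. Differences and counts were computed with pandas 2.3.3 and numpy 2.4.6, and figures with matplotlib 3.10.9. Before use, the calls were run on simulated data with changes set only in genes well above the median and equal noise at all intensities. All 50 genes set 2.5-fold apart were called, and none of 20386 genes left unchanged. This does not cover calls of genes near the median, such as Rgs5 and Rgs14.

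The members and the 7 pathway and 7 marker lists were chosen with earlier results of these data known. The rule for named genes took all 10 members with every probe set, and up to 4 examples from each list that were called in the untreated pair. Some list results are not reported here. Samples were grouped by their labels. No test was run, because each condition had 1 array. Alternatives were RMA, centring, quantile normalization, the median over probe sets, no raising, raising to the lower or upper quartile, a 1.5-fold threshold, other probe sets and, added later, subtraction of the median of neighbouring genes.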

Additional observations from a re-analysis of the deposited data

Results flagged for a closer look

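For 3 members, at the probe set read for the gene, phenylephrine moved the PMCA4-/- array one way and the WT array the other. The differences between the genotypes were not tested, since each is a single pair of arrays. Rgs2 and Rgs16 did so only at other probe sets. In PMCA4-/- and WT cells, 1447830_s_at of Rgs2 gave −0.03 and 0.35. For Rgs16, 1451452_a_at gave 0.09 and −0.32, and 1426037_a_at gave 0.10 and −0.08. Rgs14 differed by 0.29 on the log2 scale with phenylephrine in PMCA4-/- cells and by −0.68 in WT cells, 0.97 apart. This rests on the treated WT array, where Rgs14 was below the array median, and with RMA the log2 differences were 0.05 and −0.08. Rgs3 differed by 0.07 in PMCA4-/- cells and by −0.04 in WT cells, 0.11 apart, but with RMA both were below 0, at −0.01 and −0.05. Rgs19 differed by −0.03 and 0.05, a PMCA4-/- minus WT value of −0.0802, so that both genes stayed within the size under which 95% of all genes lay.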

How the results depend on the processing

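No paired analysis was possible because each condition has 1 array and the labels give no replicate numbers that the conditions share, and no replicate could be left out. A fit of genotype plus treatment to the 4 arrays was not run. For untreated cells the count of members at least 2-fold apart, 1, was 0 with the median over probe sets and 0 with values raised to the upper quartile, and 3 at 1.5-fold. In the phenylephrine pair the count, 1, was 2 without raising and 2 with raising to the lower quartile, through Rgs14, 0 with raising to the upper quartile, and 3 at 1.5-fold. With the median over probe sets it was 1 in the phenylephrine pair, but there it was Rgs2, at −1.11, while Rgs5 could not be called there. Between phenylephrine-treated and untreated WT cells it was 0, and 1 at 1.5-fold. RMA, centring and quantile normalization gave the main counts. No member at least 2-fold apart changed sign under any setting run. Of 325 single differences under other settings, 296 kept their sign and their side of 2-fold, 7 moved past it, 5 fell short of it, all of Rgs5, and 17 that were under 2-fold changed sign. Of all these values, 3 of Rgs5 at dim probe sets have both arrays raised to the median and so no direction.

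Over all genes, the count at least 2-fold apart in the untreated pair was 1058, against 717 with RMA, 2765 with raising to the lower quartile, 351 with raising to the upper quartile and 2537 at 1.5-fold. In the phenylephrine pair it was 1107, against 713 with RMA, 2825, 377 and 2689. With phenylephrine it was 6 in PMCA4-/- and 3 in WT cells, against 3 and 0 with RMA, 11 and 22 with the median over probe sets, 58 and 54 without raising, 946 and 1102 with raising to the lower quartile, 0 and 0 with raising to the upper quartile, and 86 and 67 at 1.5-fold. Signal near background limits Rgs5 in PMCA4-/- cells and Rgs14 in WT cells.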

Other observations

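The beta and gamma subunits, which form the other arm of a G protein, were read in the same way. Of 10 genes above the array median in the untreated pair, 1 was at least 2-fold higher in PMCA4-/- cells and none was lower. Gnb4, a beta subunit gene, had 319 and 325 in phenylephrine-treated and untreated PMCA4-/- cells, against 137 and 142 in WT cells, 2.32-fold higher in the phenylephrine and 2.29-fold in the untreated pair. Gnb5, whose product pairs with RGS proteins of the group that includes Rgs9 and Rgs11, had 396 and 365 in PMCA4-/- cells, against 599 and 613 in WT cells. Of 8 other genes with an RGS or GoLoco domain above the median, none was 2-fold apart in either pair. The share over all genes was 8.9% in the untreated and 9.27% in the phenylephrine pair. Gpsm1, which encodes an activator of G-protein signalling, had 1066 and 1159 in PMCA4-/- cells, against 697 and 759 in WT cells, a log2 difference of 0.61 in both pairs. Gpsm3, with a GoLoco domain too, had 324 and 338 in PMCA4-/- cells, against 516 and 481 in WT cells. Gnb5, Gpsm1 and Gpsm3 were named after their values were seen.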
